A study of Mus musculus with 15 samples.

Results

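Midbrain dopamine neurons are not one cell type, and a small set of genes is used to tell their subtypes apart. The RNA of 8 such genes, Sox6, Ndnf, Satb1, Calb1, Calb2, Neurod6, Lpl and Tacr3, was followed in sorted nuclei of the mouse ventral tegmental area (VTA). They were taken by symbol from a table of 35976 genes, and all 8 were found. The rule sets no threshold on a measured value, but the markers and the gene lists below were chosen with earlier results of these data known. All 8 also passed the filter on low counts in both fits used below.

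All mice were male heterozygous DAT-Cre animals (B6.SJL-Slc6a3tm1.1(cre)Bkmm/J), aged 8 to 12 weeks. In this line Cre recombinase is expressed from the locus of the dopamine transporter. The Cre-dependent virus AAV5-DIO-KASH-HA was injected into the VTA on both sides, and 14 days were allowed for its expression. Nuclei that carried the HA tag on their envelope were sorted as dopaminergic (DA), and nuclei without it as non-dopaminergic (nDA). Food-trained mice worked for food over 7 days and received no cocaine (FT DA, n = 4 samples, and FT nDA, n = 4). Maintenance mice had the same food training and then took cocaine intravenously in a session of 1 hour a day. Each infusion carried 0.3 mg/kg in the first 5 days and 1.0 mg/kg in the following 10, and these mice were collected after the last session (MN DA, n = 3). Abstinence mice, which the labels call craving, had the same training and cocaine schedule and then spent 21 days in the home cage (CRV DA, n = 4). Each sample pooled punches of 2 mice. A cell that the virus did not reach, or a dopamine neuron with little transporter expression, falls in the nDA sort, and the punch border decides how much neighbouring substantia nigra is included.

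Sox6, a transcription factor, is known to mark dopamine neurons of the ventral substantia nigra, where Ndnf, a secreted factor, and Satb1, a chromatin-organising factor, are also used as markers. Calb1 (calbindin) and Calb2 (calretinin), both calcium-binding proteins, Neurod6, a helix-loop-helix transcription factor, Lpl (lipoprotein lipase) and Tacr3, the neurokinin B receptor, are used mostly for neurons of the VTA and the dorsal tier. These assignments overlap, and a subtype is normally defined by several genes together. In pooled nuclei, fewer nuclei of a subtype and less RNA per nucleus cannot be told apart.

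The sort was checked on the transporter gene Slc6a3, whose mean was 3010 CPM (counts scaled to a common library size) in FT DA and 91.5 CPM in FT nDA, or 3.04% of the FT DA level. Of 13 dopamine neuron genes, 12 were higher in FT DA by edgeR's quasi-likelihood test at an adjusted p under 0.05, as were 3.63% of all genes tested. Library totals ran from 25813697 counts in FT DA replicate 3 to 59046618 in CRV DA replicate 2. Glial genes were the other way round, with 7 of 10 oligodendrocyte, 1 of 7 oligodendrocyte precursor, 6 of 10 astrocyte and 7 of 10 microglial markers lower in FT DA, as were 9.17% of all genes tested. The 3 MN DA libraries and FT nDA replicate 2 had the lowest slopes of log2 CPM, less each gene's mean, on the GC content of genes, -0.0376 to -0.0224 log2 units per GC percent, against -0.0167 (FT DA replicate 2) to 0.0322 in the other 11. No pair of libraries held identical counts. The labels do not say that samples were prepared on separate days or from separate litters, so p-values measure the spread between these pools.

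In GENCODE M21 (GRCm38), Sox6 (ENSMUSG00000051910.13) spans chr7:115470872-116038796 on the minus strand, the longest of the 8 genes at 567.9 kb. It overlaps the antisense genes Gm45025 and Sox6os, so that reads of these could not be told apart if strand was not used in the authors' counting. Satb1 (chr17:51736187-51833290, minus strand) overlaps 5 gene models of the type TEC on its own strand and 1 on the other. The remaining 6 overlapped no annotated gene. Ndnf lies at chr6:65671590-65712326 (plus), Calb1 at chr4:15881264-15908064 (plus), Calb2 at chr8:110137502-110168210 (minus), Neurod6 at chr6:55677822-55681263 (minus), Lpl at chr8:68880491-68907448 (plus) and Tacr3 at chr3:134829007-134934579 (plus).

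RefSeq start sites were at hand for 4 of the 8 genes, giving 13 windows of the 250 bases upstream of a start, read on the gene's strand (GRCm38.p6). They were searched on both strands for AAAGGTCA, the element bound by the dopamine neuron factor Nr4a2, for TAATCC, the site of Otx-type homeodomain proteins, and for CAGATG, an E-box of the kind bound by Neurod factors. The windows below are shown because Tacr3 differed most between the sorts, while Sox6 and Neurod6 are the markers whose difference did not pass the test. The Sox6 window, 1 of 6, was chosen for its AAAGGTCA match, in capitals. It lies wholly inside the annotated Sox6 gene and in no exon, while the Tacr3 and Neurod6 windows lie just upstream of their genes.
Tacr3, chr3:134828757-134829006, plus strand: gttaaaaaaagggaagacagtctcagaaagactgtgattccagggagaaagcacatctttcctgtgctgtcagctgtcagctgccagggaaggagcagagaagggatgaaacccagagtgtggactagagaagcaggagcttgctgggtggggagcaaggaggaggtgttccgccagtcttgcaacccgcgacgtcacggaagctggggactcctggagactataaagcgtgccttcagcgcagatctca
Neurod6, chr6:55681264-55681513, minus strand: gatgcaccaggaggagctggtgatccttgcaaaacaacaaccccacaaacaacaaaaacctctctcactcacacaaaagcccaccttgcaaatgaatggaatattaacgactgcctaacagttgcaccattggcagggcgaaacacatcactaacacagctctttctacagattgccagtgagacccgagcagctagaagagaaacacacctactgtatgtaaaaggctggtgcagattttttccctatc
Sox6, chr7:116031048-116031297, minus strand: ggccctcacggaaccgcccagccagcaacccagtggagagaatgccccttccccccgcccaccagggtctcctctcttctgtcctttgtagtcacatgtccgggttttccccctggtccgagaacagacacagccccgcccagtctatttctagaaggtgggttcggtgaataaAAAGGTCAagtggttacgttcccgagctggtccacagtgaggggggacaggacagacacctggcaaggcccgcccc
The Tacr3 and Neurod6 windows held none of the 3 motifs. Of the 13 windows, 1 held AAAGGTCA, 1 held TAATCC and 2 held CAGATG, all of them windows of Sox6. Over all 32851 windows of this length, the shares were 1.34%, 6.25% and 14.4%. A match is a run of letters and was not tested for binding.

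The first comparison asked which of these markers are found mainly in the dopaminergic sort of food-trained mice. Of the 8 genes, 6 were higher in FT DA and 0 were lower, where 3.63% of the 19786 genes tested were higher, 9.17% lower and 12.8% changed in either direction. The median log2 difference (FT DA minus FT nDA) was 1.92 over the 8 markers and -0.21 over all genes tested. The same 6 genes had their lowest FT DA library above their highest FT nDA library, which 25.9% of all genes tested did in one direction or the other. The order of the differences did not follow the grouping into nigral and tegmental markers, with Tacr3 and Ndnf at the top and Neurod6 and Sox6 at the bottom.

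Tacr3 showed the widest gap. Its level was 155, 114, 195 and 264 CPM in FT DA replicates 1 to 4, and 9.99, 20.5, 10.3 and 18.7 CPM in FT nDA. All 4 dopaminergic libraries stood far above the 4 others. The log2 difference was 3.59 (SE 0.37, edgeR adjusted p = 0.00195), and the mean in FT nDA was 8.18% of that in FT DA. Ndnf was close behind, at 187, 321, 215 and 248 CPM in FT DA and 14.7, 22.4, 15.3 and 34.6 CPM in FT nDA. The groups again did not overlap, and the log2 difference was 3.46 (SE 0.34, edgeR adjusted p = 0.00164). Among the 8 markers these came nearest to the depletion of Slc6a3 in the nDA sort.

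Calb1, Satb1 and Calb2 were also higher in FT DA, with FT nDA means at 23.6%, 24.0% and 28.3% of the FT DA means. Calb1 was uneven within FT DA, at 103, 69.9, 332 and 176 CPM, and lay between 29.7 and 49.9 CPM in FT nDA. Its log2 difference was 2.06 (SE 0.46, edgeR adjusted p = 0.0162). This call did not hold without FT nDA replicate 2 or 4 (edgeR adjusted p = 0.0521 and 0.0502, in a range of 0.000125 to 0.0521 over all alternatives). Satb1 ranged from 88.7 to 302 CPM in FT DA and from 30.9 to 52.0 CPM in FT nDA, a log2 difference of 2.03 (SE 0.36, edgeR adjusted p = 0.0067). Calb2 ranged from 86.0 to 202 CPM against 30.7 to 43.8 CPM, a log2 difference of 1.80 (SE 0.28, edgeR adjusted p = 0.0067). FT DA replicate 3 was the highest of the 4 for Calb1 and Satb1 and the lowest for Calb2, and the FT nDA libraries lay below it for each of these genes.

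Lpl, an enzyme that releases fatty acids from lipoproteins, had the smallest difference that passed. It stood at 53.5, 40.8, 54.6 and 45.0 CPM in FT DA, a narrow range, and at 12.5, 28.6, 9.29 and 18.4 CPM in FT nDA. The log2 difference was 1.48 (SE 0.36, edgeR adjusted p = 0.0272). The replicate numbers of the food-trained groups may pair their samples, by a check given with the processing, though no label states this. With the number as a block, 2.09% of genes were higher, 3.92% changed in either direction and 5 of the 8 markers were called, and Lpl was not among them (log2 difference 1.59, edgeR adjusted p = 0.102). The Lpl call was also lost without FT DA replicate 1 (0.0510) and without FT nDA replicate 1, 3 or 4 (0.0873, 0.0568 and 0.0681, all edgeR adjusted p), in a range of 0.000988 to 0.102 over all alternatives.

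Sox6 and Neurod6 did not pass the test, in different ways. Sox6 was present in both sorts, at 32.8, 71.1, 131 and 40.6 CPM in FT DA and 29.0, 42.4, 29.2 and 26.5 CPM in FT nDA. The groups overlapped, since FT nDA replicate 2 exceeded FT DA replicates 1 and 4. The log2 difference was 1.09 (SE 0.43, edgeR adjusted p = 0.149), and 0.60 without FT DA replicate 3, the library that was highest and shallowest. Sox6 is known to be expressed in oligodendrocyte precursors and some GABA neurons as well as in dopamine neurons. The summed level of 7 precursor markers was 37.3 to 97.5 CPM in FT DA and 267 to 413 CPM in FT nDA, with 5 of the 7 at 0 in some FT DA library and none at 0 in FT nDA. That of 7 GABA neuron markers was 281 to 528 CPM in FT DA and 329 to 431 CPM in FT nDA. Their part in the Sox6 level was not tested. Neurod6 was scarce and uneven, at 1.31, 17.4, 16.2 and 4.85 CPM in FT DA, on both sides of the 5.27 to 14.2 CPM in FT nDA. Its log2 difference was 0.13 (SE 0.80, edgeR adjusted p = 0.948), an SE larger than the difference itself.

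**Figure D1:**
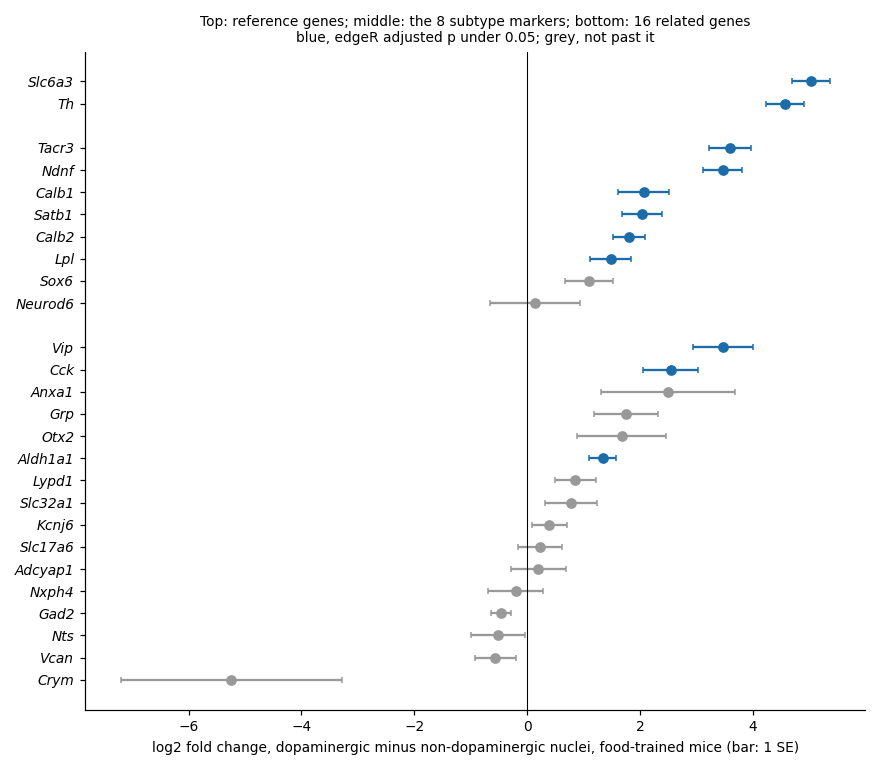
Log2 fold change between dopaminergic and non-dopaminergic nuclei of food-trained mice (x axis, bars 1 SE, 4 samples a group) for the transporter and tyrosine hydroxylase genes, the 8 markers and 16 further subtype genes, blue where the edgeR adjusted p is under 0.05. Tacr3 and Ndnf lie at 3.59 and 3.46, Sox6 and Neurod6 at 1.09 and 0.13 in grey.

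Further subtype genes were read from the same fit. Of 4 genes tied to nigral dopamine neurons, 1 was higher in FT DA and 0 lower, and of 10 tied to tegmental ones, 2 were higher and 0 lower, against 3.63% of all genes higher and 9.17% lower. Aldh1a1, a retinaldehyde dehydrogenase of ventral nigral and some tegmental neurons, averaged 203 CPM in FT DA and 79.0 CPM in FT nDA (log2 difference 1.34, SE 0.24, edgeR adjusted p = 0.0067). The neuropeptide genes Vip (log2 difference 3.47, SE 0.53, edgeR adjusted p = 0.0067) and Cck (2.54, SE 0.48, edgeR adjusted p = 0.00764) were the tegmental genes that rose. Vip averaged 46.8 CPM in FT DA and 4.15 CPM in FT nDA, and Cck 97.2 and 16.4 CPM. Slc17a6, the vesicular glutamate transporter of midbrain neurons, was at 460.4 CPM in FT DA and 387 CPM in FT nDA (log2 difference 0.23, edgeR adjusted p = 0.795). Of the 2 other vesicular glutamate transporter genes, Slc17a8 was higher in FT DA, at 38.3 against 7.34 CPM (log2 difference 2.37, SE 0.64, edgeR adjusted p = 0.0399), and Slc17a7 had a log2 difference of -1.87 (edgeR adjusted p = 0.385). Of the 2 GABA genes, Slc32a1 and Gad2, 0 passed. Otx2 (1.67), Anxa1 (2.49) and Grp (1.75) had large log2 differences with edgeR adjusted p-values of 0.238, 0.242 and 0.0817. Crym was at 0 in 3 of the 4 FT DA libraries.

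Levels were then set beside each other per length, as CPM per kilobase of the longest annotated transcript, over the 11 dopaminergic libraries. Calb2 was highest, at 80.6 ± 26.0 (SD, n = 11), followed by Tacr3 at 53.9 ± 16.4, Calb1 at 35.4 ± 17.3, Satb1 at 23.1 ± 11.3 and Ndnf at 21.6 ± 6.13. Lpl averaged 14.8 ± 8.71, Sox6 5.89 ± 3.48 and Neurod6 4.68 ± 5.74 CPM per kilobase. All were far below Slc6a3, at 796 ± 215, and Calb2 averaged 10.6% of it. Within a library, the log2 ratio of neighbours in this order exceeded 1 SD for Tacr3 over Calb1 (0.66, SD 0.59) and for Lpl over Sox6 (1.33, SD 0.93). In the other 5 neighbouring pairs the mean ratio was within 1 SD. Calb2 exceeded Tacr3 in 9 of 11 libraries, Calb1 exceeded Satb1 in 9, Ndnf exceeded Lpl in 10 and Sox6 exceeded Neurod6 in 10, while Satb1 exceeded Ndnf in 6. A transcript other than the longest, or reads from introns, would move a gene in this order.

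**Figure D2:**
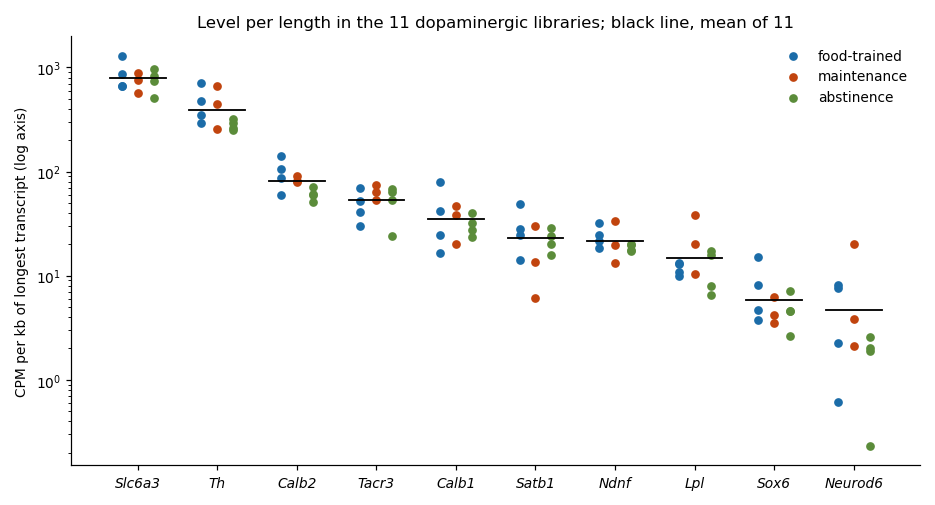
CPM per kilobase of the longest transcript (log axis) in each of the 11 dopaminergic libraries, coloured by stage, for Slc6a3, Th and the 8 markers in order of their mean (black line). The levels of the markers run from 80.6 for Calb2 to 4.68 for Neurod6, and neighbouring genes overlap.

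The proportions between markers were not fixed. The ratio of Sox6 to Calb1 per length, a nigral against a tegmental marker, was 0.112 to 0.495 in FT DA, 0.0923 to 0.208 in MN DA and 0.0810 to 0.304 in CRV DA. On this scale Calb1 exceeded Sox6 in every dopaminergic library, and the stages overlapped. In CPM, without division by length, Sox6 was the higher in FT DA replicate 2 (71.1 against 69.9 CPM). In FT nDA this ratio was 0.283 to 0.695. Spread within stages was wide for Satb1, whose SD of 0.75 log2 units was at the 93rd percentile of the 2430 genes of like abundance, and for Calb1, with 0.70 at percentile 90.8. Calb2 was the steadiest, with 0.35 at percentile 29, and Ndnf was in the middle, with 0.41 at percentile 50.6. FT DA replicate 3 held the highest Sox6, Satb1 and Calb1 of the 11 libraries, MN DA replicate 2 the highest Neurod6 and Lpl and the lowest Ndnf, and CRV DA replicate 2 the lowest Sox6, Neurod6 and Lpl.

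The stage comparisons asked whether the markers moved with cocaine. Of the 8 genes, 0 passed edgeR's test in any contrast between stages. The backgrounds by edgeR were low as well, with 0.131% of 19060 genes called between MN DA and FT DA, 0% between CRV DA and FT DA, 0.178% between CRV DA and MN DA and 0.0839% in the test of any difference among the stages. At an unadjusted p under 0.05, 1 marker differed between MN DA and FT DA (11.6% of all genes), 1 between CRV DA and FT DA (4.3%, or 819 genes), 2 between CRV DA and MN DA (9.92%) and 1 in the test over stages (7.85%). DESeq2 called more genes, 894 between MN DA and FT DA, 125 between CRV DA and FT DA, 732 between CRV DA and MN DA and 358 over the stages, while limma-voom called 9, 0 and 30 in the 3 contrasts. Neither of these tools called a marker in any stage contrast. The contrasts share libraries, FT DA in the first pair and MN DA or CRV DA in the third, so they are not independent. The CPM of 0 markers separated MN DA from FT DA without overlap (8.49% of genes), or CRV DA from FT DA (3.32%). Of the further subtype genes, 0 of 4 nigral, 0 of 9 tegmental and 0 of 2 GABA genes that could be tested passed edgeR's test in any of these contrasts.

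Calb2 had the lowest unadjusted p of the 8 genes. It stood at 202, 123, 86.0 and 152 CPM in FT DA, at 115, 131 and 114 CPM in MN DA and at 86.5, 84.6, 101 and 73.1 CPM in CRV DA. CRV DA lay below MN DA without overlap, which 12.1% of genes tested did in one direction or the other, but FT DA replicate 3 lay within the CRV DA range. The log2 difference was -0.71 for CRV DA minus FT DA (SE 0.26, unadjusted p = 0.0163, edgeR adjusted p = 1.00) and -0.48 for CRV DA minus MN DA (SE 0.28, edgeR adjusted p = 0.631). Without FT DA replicate 3 the first was -0.88, and without FT DA replicate 1 it was -0.48. All 13 dopamine neuron genes also had a lower fitted level in CRV DA than in FT DA, with a median log2 difference of -0.28 (0.04 over all genes tested), though 0 passed edgeR's test. Th was at -0.70 (unadjusted p = 0.0495, edgeR adjusted p = 1.00), and the part of these genes in the Calb2 value was not tested.

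Lpl stood at 42.3, 157 and 82.7 CPM in MN DA and at 71.0, 26.8, 64.4 and 32.5 CPM in CRV DA. The log2 difference from FT DA was 0.95 in MN DA (SE 0.43, unadjusted p = 0.0446, edgeR adjusted p = 0.419) and 0.01 in CRV DA (SE 0.40). That of CRV DA minus MN DA was -0.94 (SE 0.43, unadjusted p = 0.0460, edgeR adjusted p = 0.497). Both values for MN DA rested on its replicate 2, and were 0.35 and -0.35 without it. Neurod6 stood at 8.30, 43.4 and 4.55 CPM in MN DA and at 4.07, 0.501, 5.57 and 4.35 CPM in CRV DA, a log2 difference of -2.36 for CRV DA minus MN DA (SE 1.08, unadjusted p = 0.0467, edgeR adjusted p = 0.499). The same MN DA library was again the high one, and without it the difference was -0.81 and that of MN DA minus FT DA went from 0.91 to -0.65.

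Sox6 and Satb1 had their highest mean level in FT DA, and neither passed edgeR's test in a stage contrast. Sox6 averaged 69.0 ± 44.8 CPM in FT DA (SD, n = 4), 40.3 ± 12.2 CPM in MN DA (n = 3) and 41.1 ± 15.9 CPM in CRV DA (n = 4). The log2 difference from FT DA was -0.77 in MN DA (SE 0.48, edgeR adjusted p = 0.594) and -0.75 in CRV DA (SE 0.44, edgeR adjusted p = 1.00). Without FT DA replicate 3 these values were -0.26 and -0.23. Of the 7 oligodendrocyte precursor markers, Olig1 was lower in MN DA than in FT DA (0.0688 against 32.9 CPM, edgeR adjusted p = 0.0103) and higher in CRV DA than in MN DA (38.2 CPM, edgeR adjusted p = 0.00955), while Pdgfra was at 20.3 CPM in MN DA against 3.82 CPM in FT DA and did not pass (edgeR adjusted p = 0.608). The summed level of the 7, Olig1 among them, was 26.0 to 66.6 CPM in MN DA and 66.9 to 94.7 CPM in CRV DA. Of the other precursor genes, Pdgfra, Cspg4 and Olig2 had the higher mean in MN DA, and Gpr17, C1ql1 and Sox10 in CRV DA. The 7 GABA neuron markers summed to 409 to 664 CPM in MN DA and 328 to 666 CPM in CRV DA, against 281 to 528 CPM in FT DA. The part of either cell type in the Sox6 level was not tested. Satb1 averaged 180.0 ± 89.3 CPM in FT DA, 104 ± 76.9 CPM in MN DA and 138 ± 34.2 CPM in CRV DA, log2 differences of -0.80 (SE 0.49, edgeR adjusted p = 0.588) and -0.38 (SE 0.44, edgeR adjusted p = 1.00). Its MN DA libraries ran from 38.3 to 189 CPM, and both ends lie outside the CRV DA range. Without FT DA replicate 3 the Satb1 values were -0.43 and -0.00993. The first ran from -1.56, without MN DA replicate 2, to -0.40, without MN DA replicate 1.

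Ndnf, Calb1 and Tacr3 had the closest means. Ndnf averaged 243 ± 58.1, 224 ± 104.6 and 190.0 ± 14.8 CPM in FT DA, MN DA and CRV DA, Calb1 170.4 ± 116, 148 ± 56.2 and 130.2 ± 30.4 CPM, and Tacr3 182 ± 64.1, 239 ± 37.9 and 197 ± 75.1 CPM. Over these 3 genes the log2 differences ran from -0.39 to 0.39, with SE between 0.28 and 0.45, so that changes of that order were not detectable with these samples. The upper end, Tacr3 in MN DA minus FT DA, ran from 0.2 to 0.626 with one library left out. Without FT DA replicate 3 the Calb1 differences from FT DA turned from -0.21 to 0.34 (MN DA) and from -0.39 to 0.16 (CRV DA).

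The MN DA libraries all lie on the low side of the GC slopes, so that for dopaminergic nuclei the maintenance stage and a low slope cannot be told apart. The slopes were computed from the counts, and no label names a batch. A fit of all 15 libraries with the low slopes as a term rests on the single FT nDA library among them. In it the log2 differences of MN DA minus FT DA were -1.36 for Sox6, -0.82 for Satb1, -0.42 for Calb2, -0.18 for Ndnf and 1.04 for Neurod6, while Calb1 (0.35), Tacr3 (-0.27) and Lpl (-0.14) changed sign. None passed the test.

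**Figure D3:**
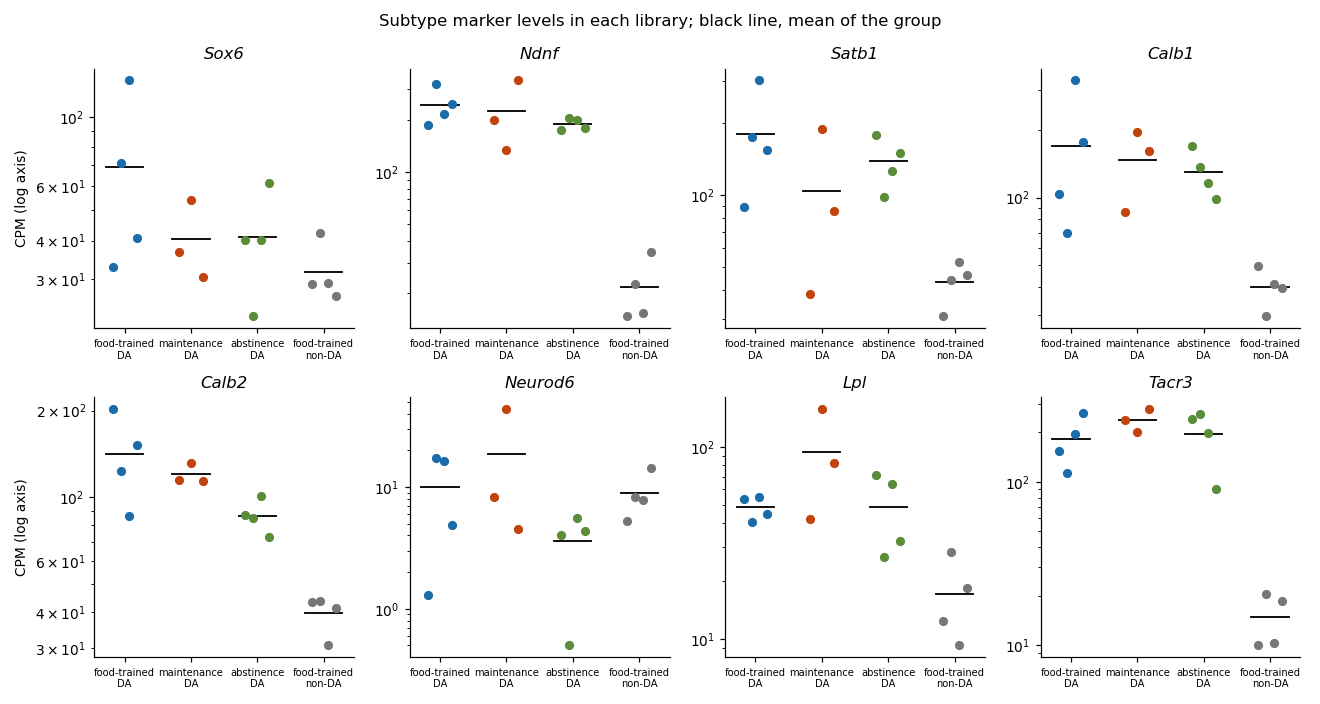
CPM (log axis, range set per gene) of the 8 markers in each library of food-trained, maintenance and abstinence dopaminergic nuclei and food-trained non-dopaminergic nuclei, with the group mean as a black line. The non-dopaminergic points lie below all food-trained dopaminergic points for 6 genes but not for Neurod6, nor for Sox6, where replicate 2 lies among them, and the 3 dopaminergic groups overlap except abstinence and maintenance for Calb2.

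**Figure D4:**
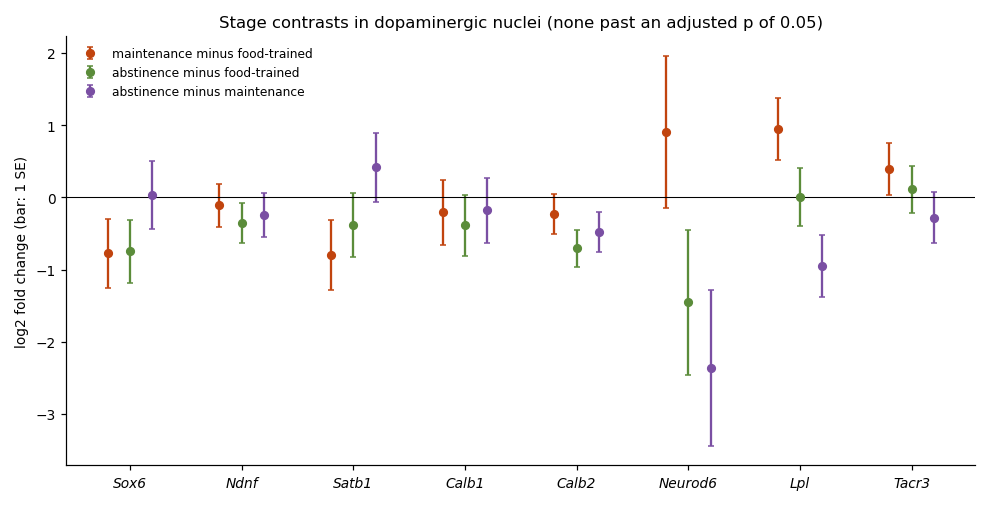
Log2 fold change (y axis, bars 1 SE) of each marker in the 3 contrasts between stages of dopaminergic nuclei, with 4 food-trained, 3 maintenance and 4 abstinence samples. The values run from -2.36 to 0.95, both extremes being contrasts that include maintenance replicate 2, and 0 of the 8 genes passed the test.

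Whether markers of different subtypes vary together or against each other between sorts was examined over the 11 dopaminergic libraries. Of 28 marker pairs, 0 passed after Benjamini-Hochberg adjustment over the pairs, by Pearson's r or by Spearman's rho, and 17 had r above 0. On deviations from each stage's mean, 1 pair passed, Sox6 with Neurod6 (r = 0.85, permutation p = 0.00093, adjusted 0.0260). The permutation shuffled these deviations across stages and did not allow for the removed means, so this p can be too small. Sox6 and Satb1 gave r = 0.70 (permutation p = 0.0210, adjusted 0.294) and rho = 0.76 (permutation p = 0.0081, adjusted 0.227). Without the 2 libraries farthest from the median of Sox6, r was 0.60, and in the 8 libraries outside MN DA it was 0.88. Sox6 and Neurod6 gave r = 0.69 (permutation p = 0.0200, adjusted 0.294) and rho = 0.68 (permutation p = 0.0252, adjusted 0.353), with r = 0.58 without the 2 farthest libraries and 0.87 in the 8. Sox6 and Calb1 gave r = 0.32 (permutation p = 0.333, adjusted 0.823) and rho = 0.14 (permutation p = 0.694, adjusted 0.945). That r was -0.37 without the 2 libraries farthest from the median of Sox6, so its sign rested on them. Sox6 and Tacr3 had the most negative r, at -0.49 (permutation p = 0.124, adjusted 0.635), with rho = -0.63 (permutation p = 0.0457, adjusted 0.407), and r = -0.75 without the 2 farthest libraries. On deviations from each stage's mean, the most negative pair was Sox6 with Calb2, at r = -0.76, against -0.25 over the pooled libraries, and Sox6 with Tacr3 was at -0.47.

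**Figure D5:**
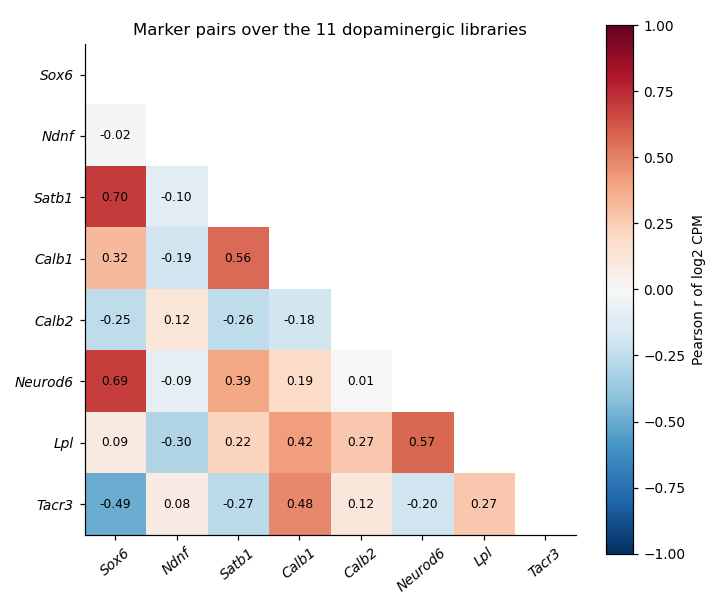
Pearson's r of log2 CPM between the 8 markers over the 11 dopaminergic libraries, from blue (-1) through white (0) to red (1), with each value printed in its cell. The highest values are 0.70 and 0.69, for Sox6 with Satb1 and Neurod6, and the lowest is -0.49, for Sox6 with Tacr3.

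For each marker the 2 genes with the most similar pattern over these 11 libraries were found among 9923 genes averaging at least 10 CPM. Sox6 was nearest to Eml6 (r = 0.95) and Rbm25 (0.93), Satb1 to Ap3d1 (0.96) and Dcaf13 (0.95), and Ndnf to Rubcn (0.86) and Tmem196 (0.82). Calb1 was nearest to Rgs6 (0.88) and Nat9 (0.87), Calb2 to Hba-a1 (0.89) and Arf3 (0.87), and Neurod6 to Scai (0.92) and Gpatch8 (0.91). Lpl was nearest to Grp (0.86), itself one of the tegmental genes, and Tpm3 (0.84), and Tacr3 to Lrrc55 (0.93) and Gnb1 (0.88). The number of genes with r above 0.8 was 185 for Satb1, 66 for Sox6 and 6 to 35 for the others. These are the best of many genes over few libraries, whose depth differs, and are given as a description.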

How the data were processed

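RNA was measured in nuclei sorted from the VTA, in 15 libraries of 4 groups read from the sample titles. The authors deposited whole-number counts per gene, with no molecular identifiers. The submitters' processing notes name the genome build mm10 (GRCm38) and the tools Trim Galore 0.6.7, cutadapt 1.18, STAR 2.7.10a, StringTie 2.1.5 and DESeq2 1.38.3, without role or order. The annotation, the use of strand and the treatment of introns are not given in the sources used here. A second deposited table held the same counts for 10 of the libraries (0 cells differed) and was not used further. These 10 were all dopaminergic libraries except FT DA replicate 3.

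Tests were run with edgeR 4.0.16 under R 4.3.3, with filterByExpr, TMM scaling and the two-sided quasi-likelihood F-test at a Benjamini-Hochberg adjusted p under 0.05. FT DA and FT nDA were compared in a fit of their 8 libraries, and stages as contrasts in a fit of the 11 dopaminergic libraries, each on the whole table. The SE of a log2 difference was its size divided by the square root of F. CPM are counts scaled with the TMM factors of all 15 libraries. Correlations used log2 CPM (prior count 2) and two-sided permutation tests with 100000 resamples in Python 3.11.15. Alternatives included DESeq2 1.42.0 and limma 3.58.1. Lengths and GC content came from GENCODE M21, in which 8654 of 35976 symbols had no match.

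In the food-trained groups the 4 same-numbered pairs deviated together (r 0.108 to 0.275, all over 0.1). In the 12 other pairs r was -0.186 to 0.145, 1 over 0.1. The labels state no pairing, so the main fit had no block, and the fit with the number as a block is given beside it. In the stage fit the same-numbered pairs did not deviate together (r -0.373 to 0.129 over 10 pairs, 1 over 0.1). The text names the 8 markers, genes of the lists and the 2 genes most similar to each marker, leaving out predicted genes and clones. The markers and lists were chosen with earlier results of these data known. In simulated counts, 200 genes above the median abundance were given a log2 change of 3, up or down. Of these 79.5% were recovered between the sorts (18484 genes), 79% between MN DA and FT DA (17954) and 86.5% between CRV DA and FT DA (17946), with 4.79%, 3.07% and 2.26% false calls. Smaller changes were not simulated, so these shares do not give the power at the sizes seen between stages.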

Additional observations from a re-analysis of the deposited data

How the results depend on the processing

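Ndnf, Satb1, Calb2 and Tacr3 were called higher in FT DA in all 18 alternatives to that comparison. In 11 of the 18, 6 markers were called, in 6 it was 5 and in 1 it was 4, with Lpl and Calb1 the calls lost. In the stage contrasts 0 of 504 marker values over the alternatives passed the test, and the lowest edgeR, DESeq2 or limma adjusted p among them was 0.245. Of these values 466 kept their direction and 38 reversed, none with a reported log2 size over 0.951. Between FT DA and FT nDA, Neurod6 reversed to -0.38 with the replicate block, -0.0239 with offsets for GC content, -0.47 with both (chosen after seeing the data) and -0.85 with limma-voom. With one library left out it ran from -0.29 to 0.50. The block changed no marker's call other than that of Lpl. For CRV DA minus FT DA, Lpl was -0.0328 with DESeq2 size factors, -0.0329 with the DESeq2 test, -0.0151 with upper quartile scaling, -0.0229 with a minimum of 10 counts, -0.0214 with the replicate block and -0.0926 with limma-voom, where Tacr3 was -0.0118. For CRV DA minus MN DA, Sox6 was -0.000613 with DESeq2 size factors and with the DESeq2 test, -0.0301 with upper quartile scaling, -0.0368 with the replicate block and -0.0294 with limma-voom. GC offsets gave 0.0497 for Ndnf and 0.245 for Calb1 there, and limma-voom gave 0.0772 for Calb1 in MN DA minus FT DA. The term for low GC slopes gave 0.35 for Calb1, -0.14 for Lpl and -0.27 for Tacr3 in MN DA minus FT DA, and 0.14 for Lpl and 0.38 for Tacr3 in CRV DA minus MN DA. With one library left out, the MN DA minus FT DA values of Calb1 ran from -0.49 to 0.34, of Ndnf from -0.54 to 0.13 and of Neurod6 from -0.648 to 1.38. Those of CRV DA minus FT DA ran from -0.65 to 0.16 for Calb1, -0.23 to 0.21 for Lpl and -0.0601 to 0.35 for Tacr3. Those of CRV DA minus MN DA ran from -0.45 to 0.0893 for Calb1, -0.49 to 0.19 for Ndnf and -0.24 to 0.30 for Sox6. Over all alternatives, CRV DA minus MN DA ran from -0.737 to 0.245 for Calb1 and from -0.236 to 0.612 for Sox6. The causes were not tested.

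Counts over all genes moved more than the markers did. Between FT DA and FT nDA, 2534 genes were called, against 1643 with at least 10 counts in every library, 775 with the replicate block, 836 with block and GC offsets, 3883 with DESeq2 and 4266 with limma-voom, and 1900 to 3740 with one library left out. Between MN DA and FT DA the 25 calls became 109 with a minimum of 10 counts, 0 with the block, 0 with the term for low slopes, 894 with DESeq2, 9 with limma-voom and 5 to 78 with one library left out. Between CRV DA and FT DA the 0 calls became 125 with DESeq2. Between CRV DA and MN DA the 34 calls became 22 with upper quartile scaling, 69 with a minimum of 10 counts, 2 with the block, 15 with all libraries in 1 fit, 1 with the term for low slopes, 732 with DESeq2 and 6 to 73 with one library left out. In the test of any difference among stages the 16 calls became 41 with a minimum of 10 counts, 0 with the block, 9 with all libraries, 0 with the term, 5 with GC offsets, 358 with DESeq2 and 1 to 23 with one library left out. The replicate numbers share only a number in the stage fit, where the block is no pairing. Of the 28 marker correlations 0 passed. On deviations from each stage's mean it was 1 (Sox6 with Neurod6, r = 0.85, permutation p adjusted over the pairs 0.0260, which does not allow for the removed means). With one library left out it was 0 to 1 (Sox6 with Satb1 without MN DA replicate 1, r = 0.88). The lowest count of a marker in any library was 27 for Neurod6 and at least 410 for the other 7.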
